A study of Mus musculus with 9 samples.

Results

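The 10 genes described here encode inhibitors of cyclin-dependent kinases (Cdkn1a, Cdkn1b, Cdkn2c and Cdkn2d), D-type cyclins (Ccnd2 and Ccnd3), the kinases that pair with them (Cdk4 and Cdk6) and E-type cyclins (Ccne1 and Ccne2). They were chosen by symbol and family, and all 10 were found among the 41388 genes of the murine RNA-Seq table and among the 11599 genes that were tested. Tc17 cells, which are CD8+ T cells that make IL-17, were differentiated from naive CD62L+CD44-CD8+ T cells sorted from lymph node and spleen of C57BL/6 mice, which per the study's methods were 8 to 12 weeks of age and matched for age and sex. All libraries came from a culture of 2 days on plate-bound anti-CD3 at 5 µg/ml, with anti-CD28 at 0.5 µg/ml, IL-2 at 50 U/ml, TGF-β at 0.5 ng/ml, IL-6 at 30 ng/ml and anti-IFN-γ at 5 µg/ml. The 3 groups, of 3 libraries each, received the solvent DMSO at 0.2% (Ctrl), dimethyl fumarate at 20 µM (DMF), or DMF at 20 µM with glutathione at 50 µM (DMF + GSH). DMF is a drug against multiple sclerosis that reacts with thiols, and GSH is the main thiol antioxidant of the cell. In every group replicate 1 was prepared in batch 1 and replicates 2 and 3 in batch 2. The labels leave unclear whether the DMF and DMF + GSH cultures held DMSO too, and a part of the solvent in their differences from Ctrl then cannot be told apart from that of DMF. The labels do not say whether the replicates came from separate mice, so the p-values measure the spread between these samples.

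A T cell that leaves rest passes through G1 by way of cyclin D bound to CDK4 or CDK6 and then cyclin E bound to CDK2, which together phosphorylate the retinoblastoma protein and free E2F transcription factors to switch on genes of S phase. The INK4 proteins, such as p18 from Cdkn2c and p19 from Cdkn2d, bind CDK4 and CDK6 directly, whereas the Cip/Kip proteins p21 from Cdkn1a and p27 from Cdkn1b bind cyclin-CDK complexes, above all those of CDK2. In T cells p27 is abundant at rest and is removed after stimulation largely through protein degradation, and p21 is the classic target of p53, so the level of an mRNA is only part of the control of each of these proteins.

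Each library held between 7671772 and 14511926 reads on genes. The 5 markers of CD8 T cells summed to 21484 to 26446 normalized counts in Ctrl, 21759 to 26588 in DMF and 21456 to 28119 in DMF + GSH, where a normalized count is the number of reads on a gene divided by 1 factor per library. Within that list Cd8a was higher in DMF than in Ctrl in each replicate number (10599 to 13778, 10356 to 13103 and 9483 to 10923), while Cd3d, Cd3e and Cd3g were lower in each, Cd3g from 3593 to 2303, 4186 to 2811 and 2763 to 2121. The 3 type 17 genes Il17a, Il17f and Il23r summed to 2934 to 4577 in Ctrl, 766 to 1988 in DMF and 3027 to 5033 in DMF + GSH. Of 4 erythroid markers in the table, 4 were at 0 throughout Ctrl and DMF + GSH, and their sum reached at most 0.968 in DMF. The 4 myeloid markers in the table summed to 9.35 to 189 in Ctrl, where replicate 3 held 119 for Lyz2 and 58.3 for Csf1r, against 6.35 to 24.2 in DMF and 18.5 to 22.3 in DMF + GSH. The NK cell list summed to 8.36 to 12.8 in Ctrl, 20.5 to 33.9 in DMF and 8.80 to 17.5 in DMF + GSH, mostly the lectin-like receptor gene Klre1. The B cell list summed to 68.3 to 92.0 in Ctrl and 58.1 to 81.3 in DMF, mostly Cd79b, with Pax5 at or near 0. The CD4 T cell list summed to 48.3 to 75.2 in Ctrl and 59.0 to 86.5 in DMF, mostly Zbtb7b, with Cd4 at or near 0. Both lists thus overlapped between Ctrl and DMF. The part of the CD8 T cell, NK cell and type 17 markers in the results on the cell cycle genes was not tested. Without Ctrl replicate 3, the library with the myeloid reads, 8 of the 10 genes passed the test of DMF against Ctrl described next, compared with 6 in all libraries, and the calls over all genes went from 3242 to 3790.

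The first comparison asked how DMF changed the G1 machinery. The mRNA of 3 of the 4 inhibitors fell, Cdkn2d to 0.528 times, Cdkn1b to 0.545 times and Cdkn2c to 0.701 times the level in Ctrl. The fourth inhibitor, Cdkn1a, rose to 1.87 times the Ctrl level. On the cyclin and kinase side Ccnd2 rose to 1.45 times and Cdk4 to 1.25 times. The other 4 genes, Ccnd3, Cdk6, Ccne1 and Ccne2, all had positive log2 fold changes, of 0.12 to 0.50, that did not pass the test. In bulk samples a smaller number of cells with a transcript and less of it per cell cannot be told apart.

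In counts, 6 of the 10 genes passed an adjusted p under 0.05 in limma, 3 higher and 3 lower, against 28.0% of all genes tested (14.6% higher and 13.3% lower). When the batch term gave way to a block for each replicate number, 9 of 10 passed, 6 higher and 3 lower, against 45.0% of all genes (23.7% higher and 21.4% lower). Only Ccnd3 was not called under the block. The 3 libraries of DMF and the 3 of Ctrl did not overlap for 6 genes (Cdkn1b, Cdkn2c, Cdkn2d, Ccnd2, Cdk4 and Ccne1), against 41.3% of all genes. All 10 genes kept 1 direction over the 3 replicate numbers, a count for which no share of all genes is given here. At the stricter threshold of the study, which asks for an adjusted p under 0.01 together with a log2 change of 0.75 or more either way, Cdkn1b alone passed, against 2.89% of all genes, and under the block Cdkn1a, Cdkn1b and Cdkn2d passed, against 6.80%. The median log2 fold change over the 10 genes was 0.27, and over all genes it was 0.01.

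**Figure D1:**
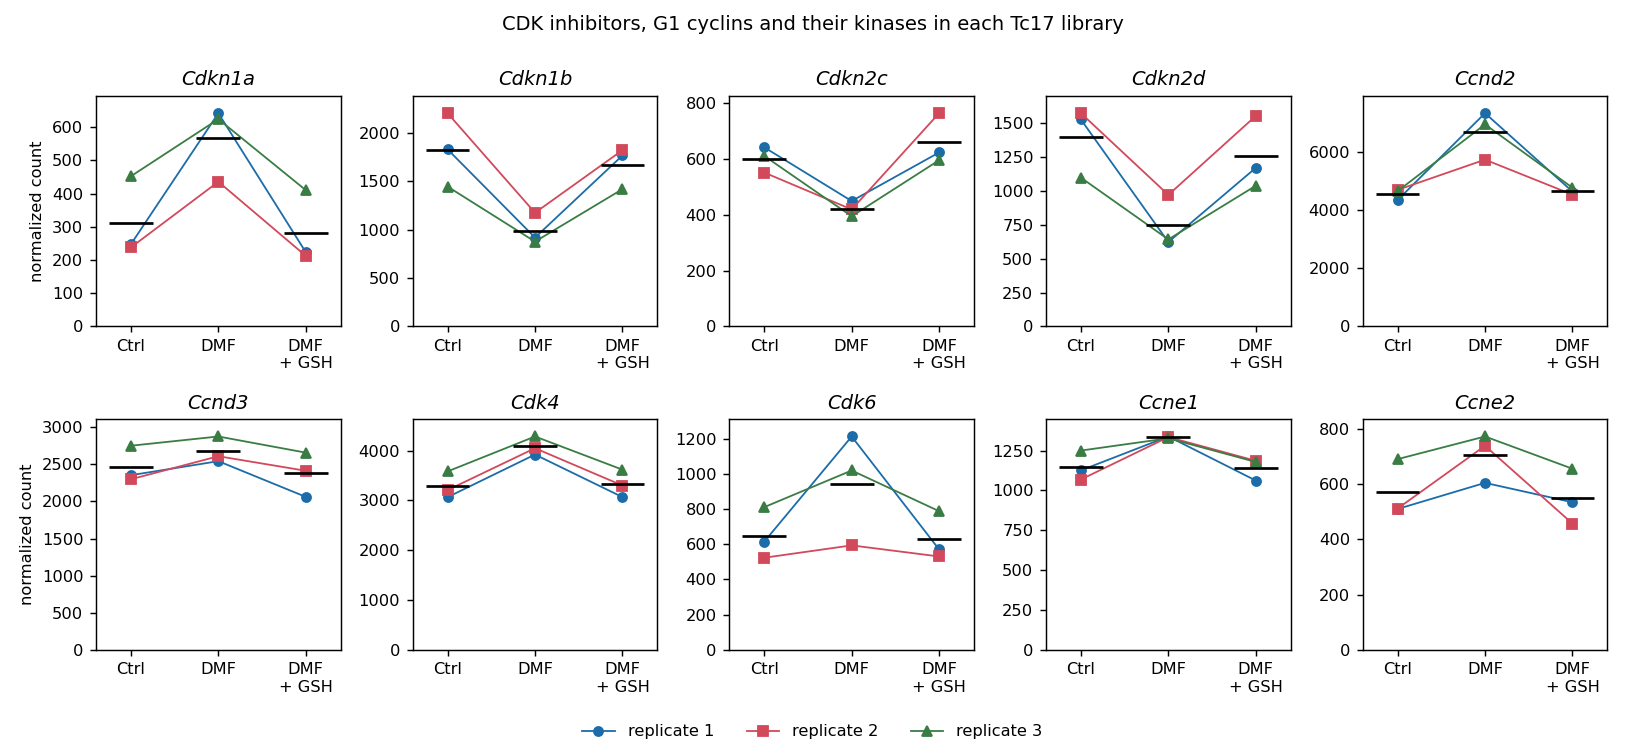
Normalized counts (y axis, linear from 0) of the 10 genes in the 3 groups (x axis), with 1 point per library, lines joining libraries of the same replicate number and black bars at the group means. Cdkn1b, Cdkn2c and Cdkn2d are lower in each DMF library than in the Ctrl and DMF + GSH libraries, Ccnd2 and Cdk4 are higher, and Cdkn1a is higher in DMF within each replicate number although DMF replicate 2, at 436, lies below Ctrl replicate 3, at 452.

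Cdkn1b, the gene of p27 (ENSMUSG00000003031, chr6:134920401-134925513 of GRCm38, plus strand), had 1831, 2205 and 1446 normalized counts in Ctrl replicates 1, 2 and 3. The 3 DMF libraries had 918, 1175 and 877, and the 3 DMF + GSH libraries had 1768, 1823 and 1419.6. The DMF libraries were thus the 3 lowest of the 9, and the Ctrl and DMF + GSH libraries overlapped. The group means were 1828 ± 380 in Ctrl, 990 ± 162 in DMF and 1670 ± 219 in DMF + GSH (SD, n = 3 each). The log2 fold change of DMF against Ctrl was -0.87 ± 0.17 (SE), with an adjusted p of 0.00785 in limma, and the differences in replicates 1, 2 and 3 were -0.99, -0.91 and -0.72. Added GSH raised Cdkn1b by a log2 fold change of 0.76 ± 0.17 over DMF alone (adjusted p = 0.0157, limma).

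Cdkn2d, the gene of p19 of the INK4 family (ENSMUSG00000096472, chr9:21288410-21291407, minus strand), had 1529, 1575 and 1099 normalized counts in Ctrl, and 623, 972 and 643 in DMF. In DMF + GSH it had 1172, 1555 and 1039. Again the 3 DMF libraries lay below all others. The fall with DMF was the largest among the 10 genes on the log2 scale, -0.92 ± 0.21 (SE, adjusted p = 0.0126, limma), which is rank 601 of 11599 by absolute size. It measured -1.29 in replicate 1, from batch 1, and -0.70 and -0.77 in replicates 2 and 3, from batch 2. With GSH the gene was higher than with DMF alone by 0.76 ± 0.21 (adjusted p = 0.0299, limma).

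Cdkn2c, the gene of p18, the other INK4 inhibitor that was expressed here (ENSMUSG00000028551, chr4:109660876-109667189, minus strand), had the smallest fall. Its normalized counts were 642, 552 and 611 in Ctrl, 449.6, 419.5 and 395 in DMF, and 624, 765 and 596 in DMF + GSH. The lowest Ctrl library exceeded the highest DMF library. The log2 fold change of DMF against Ctrl was -0.51 ± 0.11 (SE, adjusted p = 0.0106, limma), and with GSH it was higher than with DMF alone by 0.64 ± 0.11 (adjusted p = 0.0107, limma). The value of 765 in DMF + GSH replicate 2 was the highest of the 9.

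Cdkn1a, the gene of p21, which arrests the cycle downstream of p53 (ENSMUSG00000023067, chr17:29090976-29100727, plus strand), moved the other way from the 3 inhibitors above. Ctrl libraries had 247, 238 and 452 normalized counts, DMF libraries 642, 436 and 624, and DMF + GSH libraries 223, 212 and 410.3. Replicate 3 was high in Ctrl and in DMF + GSH, and the Ctrl and DMF libraries overlapped. The log2 fold change of DMF against Ctrl was 0.90 ± 0.30 (SE, 95% CI 0.24 to 1.57), which passed narrowly with the batch term (adjusted p = 0.0470, limma). Within replicate numbers the differences were 1.37, 0.87 and 0.46, and the adjusted p under the replicate block was 1.49e-05. Under the block it was called in 9 of 9 fits with 1 library left out (adjusted p up to 0.000545, limma). With the batch term this call was the least firm of the 6. It was lost with DESeq2 on the recovered reads (0.88, adjusted p = 0.0976), with quantile normalization (0.88, adjusted p = 0.0542) and when any 1 of 5 libraries was left out, with log2 fold changes of 0.78 and 0.69 when Ctrl replicate 1 or Ctrl replicate 2 was left out, 0.67 and 0.85 when it was replicate 1 or replicate 3 of DMF, and 0.90 when it was DMF + GSH replicate 1. Added GSH gave a log2 fold change of -1.05 ± 0.30 against DMF alone (adjusted p = 0.0333, limma), the largest difference of that comparison among the 10 genes, and there the groups did not overlap. That call too was lost with DESeq2 (-1.03, adjusted p = 0.0535) and when any 1 of 5 libraries was left out. These were DMF replicate 3 (adjusted p = 0.117, limma) and 4 others, with log2 fold changes of -1.05 without Ctrl replicate 1 (adjusted p = 0.0564, limma), -0.82 without DMF replicate 1, and -0.94 and -0.84 without replicate 1 or replicate 2 of DMF + GSH. Under the replicate block the GSH difference had an adjusted p of 3.43e-06 (limma). It was called in 9 of 9 blocked fits with 1 library left out (adjusted p up to 9.99e-05).

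RefSeq lists a pair of start sites for Cdkn1a. The 250 bases before the upstream site (chr17:29090729-29090978 of GRCm38.p6, plus strand) are shown because Cdkn1a was the inhibitor that rose and because this window holds matches to the decamer of the p53 response element. Capitals mark the matches, whose first bases lie at -73 and -51 relative to the start.
Cdkn1a: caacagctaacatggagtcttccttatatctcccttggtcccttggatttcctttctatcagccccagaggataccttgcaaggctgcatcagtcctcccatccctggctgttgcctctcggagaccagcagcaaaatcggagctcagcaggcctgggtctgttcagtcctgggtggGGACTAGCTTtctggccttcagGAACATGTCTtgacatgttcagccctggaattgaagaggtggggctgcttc
A match to the decamer occurred in 8.36% of the 32851 promoter windows of 300 bases in the RefSeq table, and it was searched after the sequences had been seen. Of 17 tested genes of a p53 list, which holds known targets and Trp53 itself, 2 rose with DMF and 2 fell, with a median log2 fold change of 0.02. These 4 are 23.5% of the list, below the 28.0% called among all genes, and under the block 6 rose and 4 fell (58.8%, against 45.0%). With GSH added to DMF 2 were higher and 2 lower (23.5%, against 22.3% of all genes), and under the block 5 and 6 (64.7%, against 41.5%). The exonuclease gene Aen (0.71 ± 0.16 SE, adjusted p = 0.0139, limma) and the death gene Bax (0.49 ± 0.13, adjusted p = 0.0252) rose. Sesn1 (-0.76 ± 0.21, adjusted p = 0.0258) and Trp53inp1 (-0.68 ± 0.14, adjusted p = 0.00936) fell. Neither Trp53 itself (0.13 ± 0.06, adjusted p = 0.147) nor Mdm2, the feedback target that degrades p53 (0.10 ± 0.07, adjusted p = 0.260), passed the test. Called only under the block were, among others, a rise of Phlda3 and a fall of Btg2. Phlda3 was at 1.11 ± 0.56 (adjusted p = 0.163 in limma and 9.54e-05 under the block). Btg2 was at -0.76 ± 0.33 (adjusted p = 0.113 in limma and 1.55e-05 under the block). Trp53, Mdm2, Phlda3 and Btg2 are named here beyond the rule for listed genes.

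Ccnd2, the most abundant D cyclin in these cells (ENSMUSG00000000184, chr6:127125162-127152193, minus strand), was higher in each DMF library than in any other. It had 4343, 4692 and 4651 normalized counts in Ctrl, 7332, 5734 and 6945 in DMF, and 4635, 4531 and 4768 in DMF + GSH. The means were 4562 ± 191, 6670.2 ± 834 and 4645 ± 119 (SD, n = 3 each), so the spread was widest in DMF. With DMF the log2 fold change was 0.54 ± 0.09 (SE, adjusted p = 0.00640, limma), the lowest adjusted p among the 10 genes. It fell by 0.51 ± 0.09 on the log2 scale when GSH was added to DMF (adjusted p = 0.0110, limma).

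Ccnd3, the other D cyclin of lymphocytes (ENSMUSG00000034165, chr17:47505051-47599691, plus strand), ranged from 2299 to 2752 normalized counts in Ctrl, 2543 to 2876 in DMF and 2062 to 2658 in DMF + GSH, so all groups overlapped. Its log2 fold change with DMF was 0.12 ± 0.09 (SE, 95% CI -0.08 to 0.31, adjusted p = 0.328 in limma and 0.100 under the block). GSH added to DMF gave -0.18 ± 0.09 (adjusted p = 0.167, limma), and 0.0195 under the block. The interval leaves room for a change of up to 0.31 on the log2 scale. Of the exons of Ccnd3, 361 of 8775 bases are shared with the gene Bysl on the opposite strand, which itself differed by 0.71 with DMF (adjusted p = 0.00640, limma). No source used here gives the strand setting of the counting, so reads from such a pair cannot be told apart.

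Cdk4, the main kinase partner of the D cyclins (ENSMUSG00000006728, chr10:127063534-127067920, plus strand), had 3064, 3206 and 3581 normalized counts in Ctrl. In DMF it had 3919.8, 4047 and 4283, and in DMF + GSH 3065, 3298 and 3616. Every DMF library exceeded every other library, and the Ctrl and DMF + GSH libraries of the same number differed by at most 0.04 on the log2 scale. The log2 fold change with DMF was 0.32 ± 0.07 (SE, adjusted p = 0.0116, limma), with differences of 0.36, 0.34 and 0.26 in replicates 1, 2 and 3. Added GSH gave -0.30 ± 0.07 against DMF alone (adjusted p = 0.0178, limma). Cdk4 shares 641 of its 3249 exon bases with Tspan31 on the opposite strand, which was at 0.02 with DMF (adjusted p = 0.857, limma).

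The 250 bases before the Cdk4 start (chr10:127063285-127063534 of GRCm38.p6, plus strand) are shown because they stood apart among the genes here by their E-boxes. Capitals mark 4 copies of CACGTG, the E-box bound by MYC and related factors, at -172, -118, -98 and -11 relative to the start, and 2 matches to TGACNNNGC, the core of the antioxidant response element, 1 on each strand, at -243 and -133.
Cdk4: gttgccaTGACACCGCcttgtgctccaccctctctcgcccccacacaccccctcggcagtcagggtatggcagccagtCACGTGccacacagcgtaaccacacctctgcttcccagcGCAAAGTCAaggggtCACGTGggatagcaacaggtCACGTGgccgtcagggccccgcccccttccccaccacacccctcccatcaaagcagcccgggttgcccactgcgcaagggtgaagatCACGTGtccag
At least 1 CACGTG was present in 7.15% of all 32851 promoters of 300 bases, and at least 4 were present in 8 of them (0.0244%). The cutoff of 4 is the number found in the Cdk4 window, so this rate is for a pattern picked from that window and tests nothing. TGACNNNGC was present in 12.4%. RefSeq windows were found for 8 of the 10 genes, with 11 windows in all, and both strands were searched. Other matches to CACGTG lay in Cdk6, at -220, and at 35 after the second start of Cdkn2c. TGACNNNGC matched in Cdkn1b at -2, in Ccnd3 at -165 and in Cdkn1a at 28 after the second start. The E2F motif TTCCCGC, found in 4.60% of promoters, lay at -25 in Cdkn2c, while TTGGCGC (2.45%) was in none of the 11 windows. The FOXO motif GTAAACA (3.65%) lay at -243 in Ccnd3. The STAT motif TTCNNNGAA (8.30%) was in none, and Cdkn2d held 1 match to the p53 decamer at -102. No overlap between motifs was counted, and these matches describe letters in a window only.

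Cdk6, the second kinase of this step (ENSMUSG00000040274, chr5:3341485-3531008, plus strand), varied widely among libraries. It had 614, 523 and 811 normalized counts in Ctrl, 1212, 593 and 1019 in DMF, and 569.9, 530.1 and 788 in DMF + GSH. Replicate 2 of DMF lay within the Ctrl range and replicate 1 lay far above it. With DMF the log2 fold change was 0.50 ± 0.26 (SE, 95% CI -0.08 to 1.07), with an adjusted p of 0.174 in limma, and it passed under the replicate block (adjusted p = 0.00221). Replicates 1, 2 and 3 contributed differences of 0.98, 0.18 and 0.33, so most of the size came from the pair of batch 1. Without DMF replicate 2 the value was 0.80 (adjusted p = 0.0173, limma), and without DMF replicate 1 it was 0.24. GSH added to DMF gave -0.54 ± 0.26 (adjusted p = 0.154 in limma and 0.00126 under the block). There the differences in replicates 1, 2 and 3 were -1.09, -0.16 and -0.37, and over 20 settings the value ranged from -0.85 to -0.28.

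Of the E cyclins, which activate CDK2 at the border of S phase, Ccne1 (ENSMUSG00000002068, chr7:38097984-38107534, minus strand) had 1126, 1068 and 1249.9 normalized counts in Ctrl and 1338, 1335 and 1327 in DMF. In DMF + GSH it had 1062, 1186 and 1178. All DMF libraries were above all others and lay close to each other, with a mean of 1333 ± 5.82 (SD, n = 3). The log2 fold change of 0.22 ± 0.08 (SE) just missed the threshold with the batch term (adjusted p = 0.0542, limma) and passed under the replicate block (adjusted p = 0.00959). GSH added to DMF gave -0.23 ± 0.08 (adjusted p = 0.0567 in limma and 0.00890 under the block).

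Ccne2 (ENSMUSG00000028212, chr4:11191351-11204779, plus strand) ranged from 510.3 to 691 normalized counts in Ctrl, 605 to 773 in DMF and 457 to 656 in DMF + GSH, with overlap between the groups. Its log2 fold change with DMF was 0.31 ± 0.15 (SE, adjusted p = 0.137 in limma and 0.00685 under the block), and with GSH added to DMF it was -0.37 ± 0.15 (adjusted p = 0.0962 in limma and 0.00229 under the block). In replicates 1, 2 and 3 the GSH differences were -0.18, -0.69 and -0.24. Over 20 settings the values ranged from 0.20 to 0.44 with DMF and from -0.48 to -0.20 with GSH added. With 1 library left out, the blocked call with DMF held in 8 of 9 fits (adjusted p up to 0.118, limma). Ccne2 shares 609 of 3495 exon bases with Ints8 on the opposite strand, which was higher with DMF by 0.29 (adjusted p = 0.0371, limma).

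Replicate number moved several of these genes as well. Over the 3 groups, replicate 3 stood above its group means by 0.45 for Cdkn1a, 0.29 for Cdk6 and 0.23 for Ccne2 on the log2 scale, and below them by -0.23 for Cdkn1b and -0.26 for Cdkn2d. Replicate 2 stood at -0.34 for Cdkn1a, -0.37 for Cdk6, 0.23 for Cdkn1b and 0.31 for Cdkn2d. For Ccnd2, Cdkn2c and Ccne1 no replicate number deviated by more than 0.07. The genes with the wide shifts were those for which the replicate block narrowed the intervals most, as the plot of log2 fold changes shows.

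**Figure D2:**
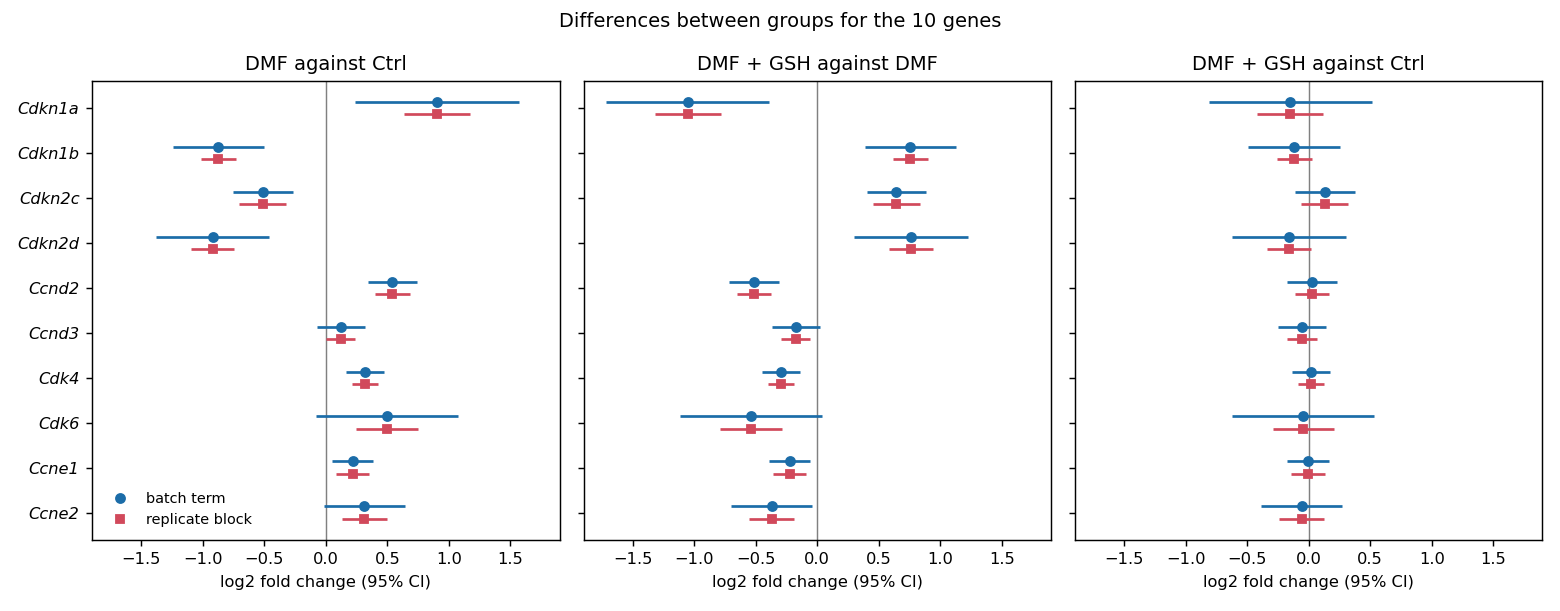
Log2 fold changes (x axis) of the 10 genes (y axis) in the 3 comparisons, with 95% confidence intervals, fitted with a batch term (circles) or with a block per replicate number (squares). Intervals of Cdkn1b, Cdkn2c and Cdkn2d lie below 0 in DMF against Ctrl and above 0 in DMF + GSH against DMF, and all intervals of DMF + GSH against Ctrl include 0 with the batch term.

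The second comparison asked what GSH changed in the presence of DMF. It uses the same DMF libraries as the first, so the values are given side by side and no likeness between them is counted as a result. Cdkn1b, Cdkn2c and Cdkn2d were higher with GSH, at 1.69, 1.56 and 1.69 times the level in DMF alone, and Cdkn1a, Ccnd2 and Cdk4 were lower, at 0.482, 0.700 and 0.813 times. These 6 of 10 genes passed in limma, against 22.3% of all genes (9.99% higher and 12.4% lower). Under the replicate block all 10 passed, 3 higher and 7 lower, against 41.5% (19.9% higher and 21.6% lower). The groups did not overlap for 7 genes, the same 6 and Ccne1, against 38.3% of all genes. At the stricter threshold of the study 0 of 10 passed (0.543% of all genes did), and 3 passed under the block (5.69%). The median over the 10 genes was -0.26 and over all genes -0.00.

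The third comparison set DMF + GSH against Ctrl. The log2 fold changes of the 10 genes lay between -0.16 and 0.13, and 0 of 10 passed in limma, where 0.00% of all genes did (222 of 11599 had an unadjusted p under 0.05). edgeR and DESeq2 on the recovered reads also called 0 genes, and the block called 4 of all genes (0.0345%), none of them among the 10. The groups overlapped for all 10, against 4.47% of all genes whose groups did not overlap. The intervals differed in width. For Cdk4 the 95% CI ran from -0.14 to 0.17 and for Ccnd2 from -0.18 to 0.23, whereas for Cdkn1a it ran from -0.81 to 0.51 and for Cdk6 from -0.62 to 0.53 with the batch term. Under the replicate block the intervals were narrower, from -0.42 to 0.12 for Cdkn1a and from -0.29 to 0.21 for Cdk6. Within replicate numbers Cdkn1a was lower in DMF + GSH than in Ctrl in 3 of 3 pairs (-0.15, -0.16 and -0.14), as were Cdkn1b (-0.05, -0.27 and -0.03) and Cdkn2d (-0.38, -0.02 and -0.08), and Cdk4 was higher in 3 of 3 by at most 0.04. None of these differences was called in limma with the batch term or the block.

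Single libraries bore on the counts of calls with the batch term. In DMF against Ctrl, leaving out Ctrl replicate 1 left 1 of the 10 genes called (Ccnd2), and leaving out Ctrl replicate 2 left 3. The number was 0 when DMF replicate 1 was dropped and 2 when DMF replicate 3 was dropped. The calls over all genes moved with them, from 3242 to 629, 1161, 111 and 957. The highest adjusted p over all settings tried came from limma with 1 library left out, and was 0.0651 for Cdkn1b, 0.0648 for Cdkn2c, 0.0889 for Cdkn2d, 0.0573 for Ccnd2 and 0.0828 for Cdk4, and their log2 fold changes ranged from -1.05 to -0.71, -0.57 to -0.47, -1.13 to -0.77, 0.45 to 0.65 and 0.27 to 0.36. When Ctrl replicate 3 was dropped, Ccne1 (0.28, adjusted p = 0.0240) and Ccne2 (0.44, adjusted p = 0.0483) were called as well. In DMF + GSH against DMF, 0 genes remained called after dropping DMF replicate 1, DMF replicate 3 or DMF + GSH replicate 1, and 1 (Cdkn2c) after dropping DMF + GSH replicate 2. Over all genes these 4 settings called 15, 106, 10 and 143 against 2592. Over 20 settings the log2 fold changes ranged from 0.67 to 0.90 for Cdkn1b, 0.51 to 0.73 for Cdkn2c and 0.60 to 0.97 for Cdkn2d. They ranged from -1.35 to -0.82 for Cdkn1a, -0.62 to -0.42 for Ccnd2 and -0.34 to -0.27 for Cdk4. With the replicate block, 8 or 9 of 10 were called in DMF against Ctrl and 8 or 10 in DMF + GSH against DMF, whichever library was left out, while 4097 to 5466 and 3580 to 4877 of all genes were called in the same fits. No log2 fold change of the 10 genes changed sign in these 2 comparisons under any setting.

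Levels were compared between genes as normalized counts per kilobase of exon. This length joins all annotated exons of a gene, 13989 bases for Cdk6, so the order and the shares below depend on it. Without division by length, Cdkn1a had the lowest Ctrl mean of the 10 genes, at 312 normalized counts against 649 for Cdk6. In Ctrl the order ran from Cdk4 (1011 ± 82.2) and Cdkn2d (890.2 ± 167), whose libraries overlapped, through Ccnd2 (485 ± 20.3), Ccne1 (431 ± 34.9) and Cdkn1b (401 ± 83.4), neighbours that overlapped, to Ccnd3 (281 ± 28.1), Cdkn2c (224 ± 17.1), Ccne2 (163 ± 29.7), Cdkn1a (87.9 ± 34.1) and Cdk6 (46.4 ± 10.5), which did not overlap their neighbours (SD, n = 3 each). In DMF, Cdk4 (1257 ± 56.7) stood alone, Ccnd2 (709 ± 88.6) came second, and Cdkn2d (474 ± 124) overlapped Ccne1 (501 ± 2.19). Ccnd3 (305 ± 20.1) came next and overlapped neither neighbour. Cdkn1b (218 ± 35.5), Ccne2 (202 ± 25.5), Cdkn1a (159.7 ± 32.2) and Cdkn2c (157 ± 10.2) followed, with overlap between neighbours, and Cdk6 (67.3 ± 22.6) was again lowest. In DMF + GSH the genes stood in the same order as in Ctrl.

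**Figure D3:**
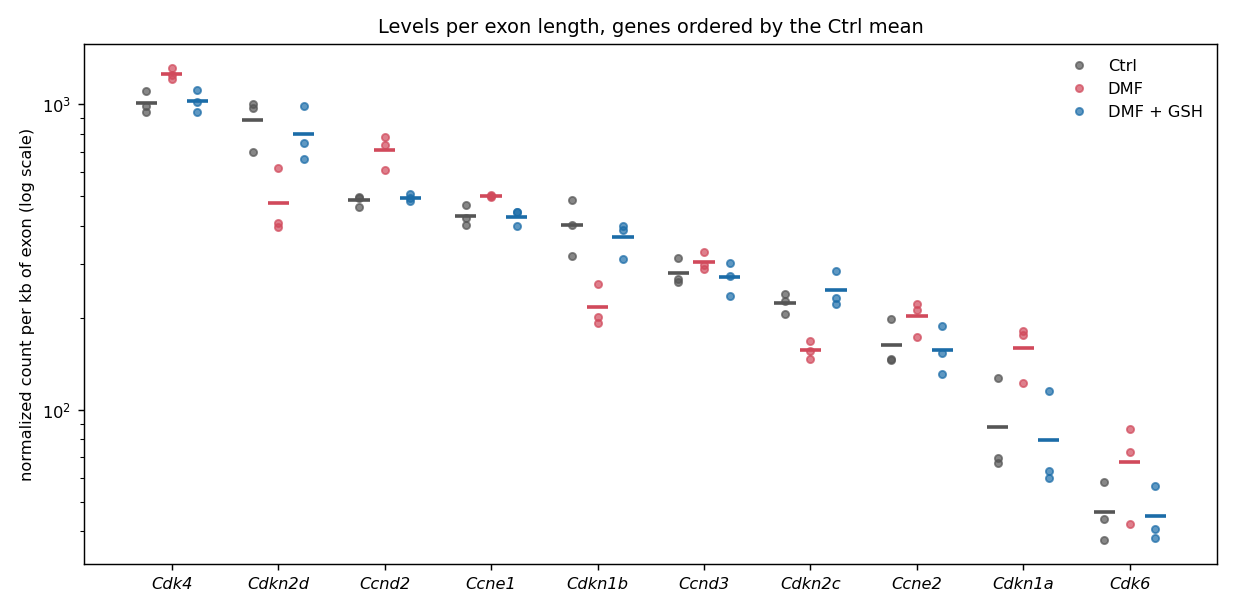
Normalized counts per kilobase of exon (y axis, log scale) of the 10 genes (x axis, ordered by the Ctrl mean), with 1 point per library and a bar at each group mean. Cdk4 has the highest mean in each group (1011 in Ctrl and 1257 in DMF), and Cdk6 the lowest.

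Within families the mix of transcripts also differed. Of the summed Cip/Kip level per kilobase of Cdkn1a and Cdkn1b, Cdkn1a made up 14.8%, 12.1% and 28.6% in Ctrl, 47.3%, 32.2% and 47.7% in DMF, and 13.9%, 13.0% and 27.0% in DMF + GSH. Each DMF library thus had a larger p21 share than any other library. Ccnd2 made up 63.2% ± 2.19 of the D cyclin level in Ctrl, 69.6% ± 2.82 in DMF and 64.4% ± 2.56 in DMF + GSH (SD, n = 3 each). The 4 inhibitors together made up 42.4%, 43.0% and 34.2% of the level of all 10 genes in Ctrl, 23.7%, 28.4% and 22.5% in DMF, and 38.7%, 42.1% and 33.4% in DMF + GSH. By contrast, Cdk4 made up 95.6% ± 0.676 of the level of both kinases in Ctrl and 94.9% ± 1.71 in DMF, and Ccne2 made up 27.3% ± 2.05 of the E cyclins in Ctrl and 28.7% ± 2.71 in DMF, differences within the spread between libraries. These shares follow from the levels above and were not tested.

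Of the remaining genes of these families, 3 were too sparse to be tested and 3 were tested and not called with the batch term in any comparison. Cdkn1c, Cdkn2a and Cdkn2b, the genes of p57, p16 with p19ARF, and p15, had group means of at most 4.83, 2.72 and 0.820 normalized counts and were not tested. Ccnd1 was barely detected, at 7.44 ± 1.02 in Ctrl, 11.8 ± 5.16 in DMF and 15.8 ± 6.35 in DMF + GSH (SD, n = 3 each). It was tested, at 0.51 ± 0.38 (SE) with DMF (adjusted p = 0.334, limma). Set against Ctrl, DMF + GSH gave 0.94 ± 0.38, rank 38 of 11599 by absolute size and above each of the 10 genes in that comparison, with higher values in 3 of 3 pairs and no overlap, but it was not called (unadjusted p = 0.0336 in limma, and adjusted p = 0.830 under the block). Cdk2, the partner of cyclin E, was at -0.08 ± 0.07 (SE, adjusted p = 0.381, limma) with DMF. Ccna2, the cyclin of S and G2 phase, was at -0.14 ± 0.07 (adjusted p = 0.172 in limma and 0.0370 under the block).

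Among the 13 genes of the RB and E2F network, on which these kinases act, 4 rose and 4 fell with DMF (61.5%, against 28.0% of all genes), with a median of -0.18, and under the block 5 rose and 6 fell (84.6%, against 45.0%). The pocket protein genes Rb1 (-0.47 ± 0.06 SE, adjusted p = 0.00402, limma) and Rbl2 (-0.55 ± 0.11, adjusted p = 0.00909) fell, as did E2f2 (-0.67 ± 0.13, adjusted p = 0.00849) and the E2F dimer partner gene Tfdp2 (-0.44 ± 0.09, adjusted p = 0.00861). The other dimer partner gene, Tfdp1 (0.35 ± 0.10, adjusted p = 0.0286), rose. So did the activator E2f1 (0.29 ± 0.09, adjusted p = 0.0377) and the repressors E2f4 (0.29 ± 0.08, adjusted p = 0.0308) and E2f6 (0.32 ± 0.09, adjusted p = 0.0303). In DMF + GSH against DMF, Rb1 was at 0.52, Rbl2 at 0.47, E2f2 at 0.60, Tfdp2 at 0.51, Tfdp1 at -0.35, E2f1 at -0.29, E2f4 at -0.29 and E2f6 at -0.35, and all 8 passed in limma (adjusted p = 0.00630 to 0.0439). They share the DMF libraries with the first comparison. Over the list this is 4 higher and 4 lower of 13 (61.5%, against 22.3% of all genes), and 5 and 4 under the block (69.2%, against 41.5%). None of the 13 was called in DMF + GSH against Ctrl.

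FOXO factors hold T cells at rest and induce Cdkn1b and other quiescence genes. The list used here has 9 genes and holds Foxo1, Foxo3 and Foxo4 themselves beside quiescence genes. Of these 9 genes 5 fell with DMF (55.6%, against 13.3% of all genes) and 0 rose, with a median of -0.52, and 8 fell under the block (88.9%, against 21.4%). Foxo1 and Foxo4 were among the 5. Ccng2, a cyclin gene linked with arrest, fell by 1.24 ± 0.21 (SE) on the log2 scale (adjusted p = 0.00650, limma) and the translation inhibitor gene Pdcd4 by 0.73 ± 0.19 (adjusted p = 0.0194). In DMF + GSH against DMF 4 of the 9 rose (44.4%, against 9.99% of all genes) and 0 fell, and 8 rose under the block (88.9%, against 19.9%). Ccng2 was then higher by 1.14 ± 0.21 (adjusted p = 0.0118, limma) and Pdcd4 by 0.67 ± 0.19 (adjusted p = 0.0320).

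Of 10 genes for the turnover and activation of cyclin-CDK complexes, 3 rose and 1 fell with DMF (40.0%, against 28.0% of all genes), with a median of 0.15, and 5 rose and 1 fell under the block (60%, against 45.0%). Cdc25a, a phosphatase that activates CDK2 (0.44 ± 0.14 SE, adjusted p = 0.0380, limma), and Cdk7, the kinase of the CDK-activating complex (0.35 ± 0.09, adjusted p = 0.0211), had the largest rises. Fbxw7, which marks cyclin E for degradation, was the gene that fell (-0.25 ± 0.08, adjusted p = 0.0423). In DMF + GSH against DMF, 0 of the 10 were higher and 2 were lower (20%, against 22.3% of all genes), and 6 were lower under the block (60%, against 41.5%). Cdc25a was lower by a log2 fold change of -0.47 (adjusted p = 0.0356, limma), Cdk7 was at -0.22 (adjusted p = 0.110, and 0.0422 under the block), and Fbxw7 was at 0.09 (adjusted p = 0.418, and 0.360 under the block). Skp2, which marks p27 for degradation, was at -0.06 ± 0.14 with DMF (adjusted p = 0.765, limma) and is named here beyond the rule for listed genes because of that role.

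Of 14 genes of S phase 2 rose, among them the replication clamp gene Pcna (0.23 ± 0.07 SE, adjusted p = 0.0405, limma), and 0 fell, with a median of 0.14. The 2 rises are 14.3% of the list, near the 14.6% of all genes that rose, and under the block 7 rose (50.0%, against 23.7%). Of 10 mitosis genes 0 rose and 5 fell (50.0%, against 13.3% of all genes), with a median of -0.24 and 6 falls under the block (60%, against 21.4%). The mitotic cyclin gene Ccnb2 (-0.53 ± 0.09 SE, adjusted p = 0.00649, limma) and the proliferation marker Mki67 (-0.49 ± 0.09, adjusted p = 0.00650) had the largest falls. In DMF + GSH against DMF, 0 of the S phase genes were called in either direction in limma (4 were lower under the block, 28.6% against 21.6% of all genes), and 4 of the mitosis genes were higher (40.0%, against 9.99%). Over the 7 lists of genes beyond the 10, 28 of 76 tested genes were called with DMF (36.8%, against 28.0% of all genes) and 22 with GSH added to DMF (28.9%, against 22.3%). Under the block they were 49 (64.5%, against 45.0%) and 44 (57.9%, against 41.5%).

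**Figure D4:**
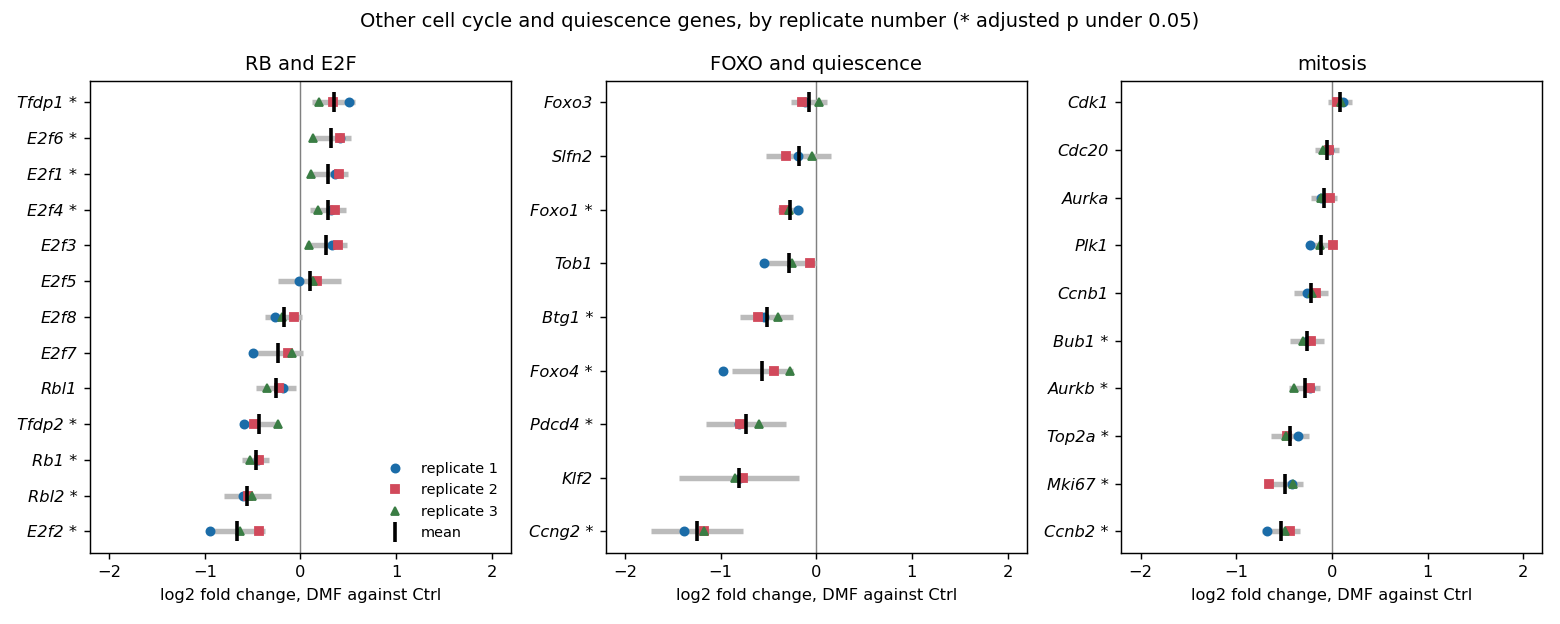
Log2 fold changes of DMF against Ctrl (x axis) for genes of the RB and E2F, FOXO and quiescence, and mitosis lists (y axis), with 1 point per replicate number, a black bar at the mean and a grey band for the 95% confidence interval of the fit with a batch term. Asterisks mark genes with an adjusted p under 0.05, and the median of the quiescence list is -0.52.

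The genes closest in pattern to the inhibitors with the widest changes were found by Pearson correlation over the 9 libraries, which share the 3 groups and the replicate shifts. For Cdkn2d they were Capns1 (r = 0.997), Fam214b (0.995) and Zc3h12d (0.994), out of 744 genes with r above 0.9. For Cdkn1a they were Wrb (0.994), Xbp1 (0.992) and Ddx51 (0.990), out of 1031 genes with r above 0.9. Among the 10 genes themselves Cdkn1b and Cdkn2d had r = 0.967, and Cdkn1a had r = -0.936 with Cdkn1b and -0.921 with Cdkn2d.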

How the data were processed

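The authors aligned 50 bp single reads to GRCm38 (Ensembl 76) with STAR 2.4.0b, counted them per gene with featureCounts and ran DESeq2 with preparation batch as a term. The deposited signal values are gene counts divided by 1 factor per library, and 100% came out as whole reads (tolerance 0.01). The authors' own log2 fold change, test score (the statistic) and p-value columns, which compare Ctrl with DMF, were not used.

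Of 41388 genes, the 11599 with a mean of at least 10 were tested with limma 3.58.1 (R 4.3.3, trend) on log2(normalized count + 1), group plus batch, with all 9 libraries in 1 fit and Benjamini-Hochberg adjustment over all genes. Fold changes are on that scale, which understates those of low genes. A call is an adjusted p under 0.05. Since the values were scaled, edgeR 4.0.16 and DESeq2 1.42.0 were run only as alternatives, on the recovered reads. Scripts were tested on simulated data. The labels give the replicate numbers, and whether these pair the libraries was checked on the deviations from the group means: all 9 same-number pairs correlated (0.447 to 0.578), and different numbers gave -0.471 to -0.0621, so the blocked values are given where they change a call.

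The text names all 10 genes, every gene of the related families, every called RB and E2F gene, and the called genes with the 2 largest rises and falls of each other list, except that some items are not reported here. Genes and lists were chosen with earlier results of these data known. Gene positions and exon lengths are from GENCODE and promoters from RefSeq (GRCm38.p6). Other settings were pseudocounts, minimum levels, scalings, no batch term, the 6 libraries compared alone and each library left out. Each library held 7671772 or more reads, and the number of libraries, 3 per group, limits the precision.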

Additional observations from a re-analysis of the deposited data

How the results depend on the processing

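With the replicate block in place of the batch term, the genes called among the 10 went from 6 to 9 in DMF against Ctrl and from 6 to 10 in DMF + GSH against DMF, and the list genes called from 28 to 49 and from 22 to 44. At the study's threshold 1 and 0 of the 10 were called. Leaving out 1 library at a time gave 0 to 8 and 0 to 7 of the 10, and 1 to 35 and 0 to 28 of the list genes. The calls over all genes, 3242 and 2592 in all libraries, moved in the same fits as given above. These ranges therefore do not set the 10 genes or the lists apart. With the replicate block and 1 library left out, an alternative chosen after seeing the data, 8 to 9 and 8 to 10 of the 10 were called. In DMF + GSH against Ctrl 0 of the 10 were called under each setting, and signs differed from the one reported in up to 5 of 20 settings per gene. In the other 2 comparisons no sign changed. Pseudocounts, minimum levels, rescaling, quantile normalization, the fit without a batch term, the fit of the 6 libraries compared, edgeR and DESeq2 each called 5 or 6 of the 10. The share of all genes called under each of these settings is not given here (28.0% and 22.3% in the main fit). These counts therefore do not compare the 10 genes with other genes. The cause of the lost calls was not tested. Cdkn2a and Cdkn2b lay near 0 in each group, below the minimum mean for testing, and whether they differed was not tested.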
